A study of Mus musculus with 9 samples.

Results

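The genes described here encode the subunits of the proteasome together with its assembly factors, activators and inhibitor, and they were chosen by name alone: every gene on the array whose mouse symbol begins with Psma to Psmg followed by a number. Of 57 such symbols in the reference table, 6 are pseudogenes and 50 had a probe, out of 18327 named genes on the array. These 50 genes were read by 71 probes, with 1 probe for 33 genes and several for 17. A total of 48 genes were tested, and each of them was well above background on all 9 arrays, so the filter on dim probes removed 2 genes, and 1 more symbol, Psme2b, was not analysed here. The genes left untested were Psma8, a germ cell alpha subunit that was well above background on 0 arrays, and Psmb11, a thymus beta subunit that was well above background on 2 Bic arrays, 0 KCl arrays and 1 control array.

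The arrays were hybridised with RNA from cultures of cortical neurons, taken from C57bl/6 embryos on embryonic day 15 and kept in vitro for 12 days. Bic cultures were given 25 µM bicuculline, a blocker of GABA-A receptors, for 6 h, KCl cultures were given 50 mM potassium chloride, which depolarises the cells, for 6 h, and control cultures were left untreated. Each group had 3 arrays. The sources used here do not say whether the arrays of a group came from separate cultures, so p-values measure only how these arrays spread, and that spread may be technical.

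The proteasome is the main protease for proteins marked with ubiquitin. Its core particle is a barrel of stacked rings, with alpha subunits at both ends forming the gate and beta subunits inside, some of which carry the catalytic sites. A regulatory particle caps the barrel: its base holds a ring of ATPases that unfold substrates, and its lid removes ubiquitin. Dedicated chaperones put the rings together, and alternative activators can replace the cap. In neurons the proteasome takes part in activity-dependent remodelling of synaptic proteins.

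Values are log2 signals relative to each array's 75th percentile, which ranged from 1586 to 3087 in signal units, and differences are on the same log2 scale with limma's standard error (SE) and its adjusted p. The software marked 65.0% to 75.9% of an array's spots as well above background and 0 as saturated. Activity genes moved with both treatments: 6 of 10 in the panel were higher and 2 lower in Bic than in control cultures, and 8 were higher and 2 lower in KCl than in control cultures, with Fos higher by 4.47 in KCl and by 2.76 in Bic cultures. All 12 neuron markers were well above background on all 9 arrays, but so were all 10 astrocyte markers, 10 of 12 microglia markers and 9 of 10 oligodendrocyte markers on the array, with Mog at 0 arrays. Summed marker levels, in units of the 75th percentile, were 154 to 159 in KCl, 154 to 158 in Bic and 125 to 129 in control cultures for neurons, 175 to 184 in KCl, 156 to 159 in Bic and 156 to 168 in control cultures for astrocytes, 37.3 to 37.9, 31.3 to 32.6 and 32.7 to 34.0 for oligodendrocytes, and 43.0 to 47.7, 23.9 to 26.3 and 24.4 to 25.6 for vascular cells. Such sums weigh bright markers most. Against control, 3 of 12 neuron markers were called higher and 4 lower in Bic cultures, and 8 and 2 in KCl cultures. For astrocytes they were 0 and 4 of 10 in Bic and 4 and 3 in KCl. For oligodendrocytes they were 1 and 5 of 9 in Bic and 7 and 2 in KCl. For vascular cells they were 0 and 2 of 9 in Bic and 6 and 1 in KCl. Cycling cell markers, all 10 well above background on all 9 arrays, numbered 1 higher and 5 lower in Bic and 2 and 8 in KCl. Their summed levels were 35.2 to 36.8 in KCl, 35.5 to 36.3 in Bic and 36.6 to 38.1 in control cultures. Of all genes, 17.4% were called higher and 27% lower in Bic, and 35.8% and 36% in KCl cultures. In bulk RNA such as this, fewer cells of a type and less RNA per cell cannot be told apart, and the part of the marker shifts in the results below was not tested.

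Proteasome transcripts shifted in both directions in KCl cultures, by less than 2-fold in each case with the scaling reported here. Across the 22 alternative settings the lowest log2 differences were -1.09 for Psmg2 and -1.06 for Psmg1, both beyond 2-fold. The transcripts of the core assembly chaperones Psmg1, Psmg2 and Psmg3 fell, as did those of the alpha subunit Psma4 and the lid subunits Psmd6 and Psmd7, and the transcript of the activator Psme4 rose. Of the 48 genes, 19 were higher in KCl than in control cultures, 15 were lower and 14 did not pass an adjusted p of 0.05, by the brightest probe of each gene. Psmd9 among the higher and Psmf1 among the lower had another probe called the opposite way. Over all 14070 genes tested, 35.8% were called higher and 36% lower in the same comparison (71.8% in either direction), so the number of proteasome genes called was close to the background. The median difference of the 48 genes was 0.0382, beside 0.0244 for all genes and 0.0925 for the 3518 brightest genes, among which 33 of the 48 lie. With the scaling reported here, the most changed members were 1.64-fold higher (Psme4) and 1.82-fold lower (Psmg2).

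In Bic cultures 6 of the 48 genes were higher than in control cultures, 8 were lower and 34 did not pass, where 17.4% of all genes were called higher and 27% lower. The median of the members was -0.0162, against -0.0328 for all genes. The range was narrow, with 1.24-fold higher for Psmb9 and 1.30-fold lower for Psmg2 at its ends. The members' median SD between arrays of a group was 0.0455, and the median over all genes was 0.0575.

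**Figure D1:**
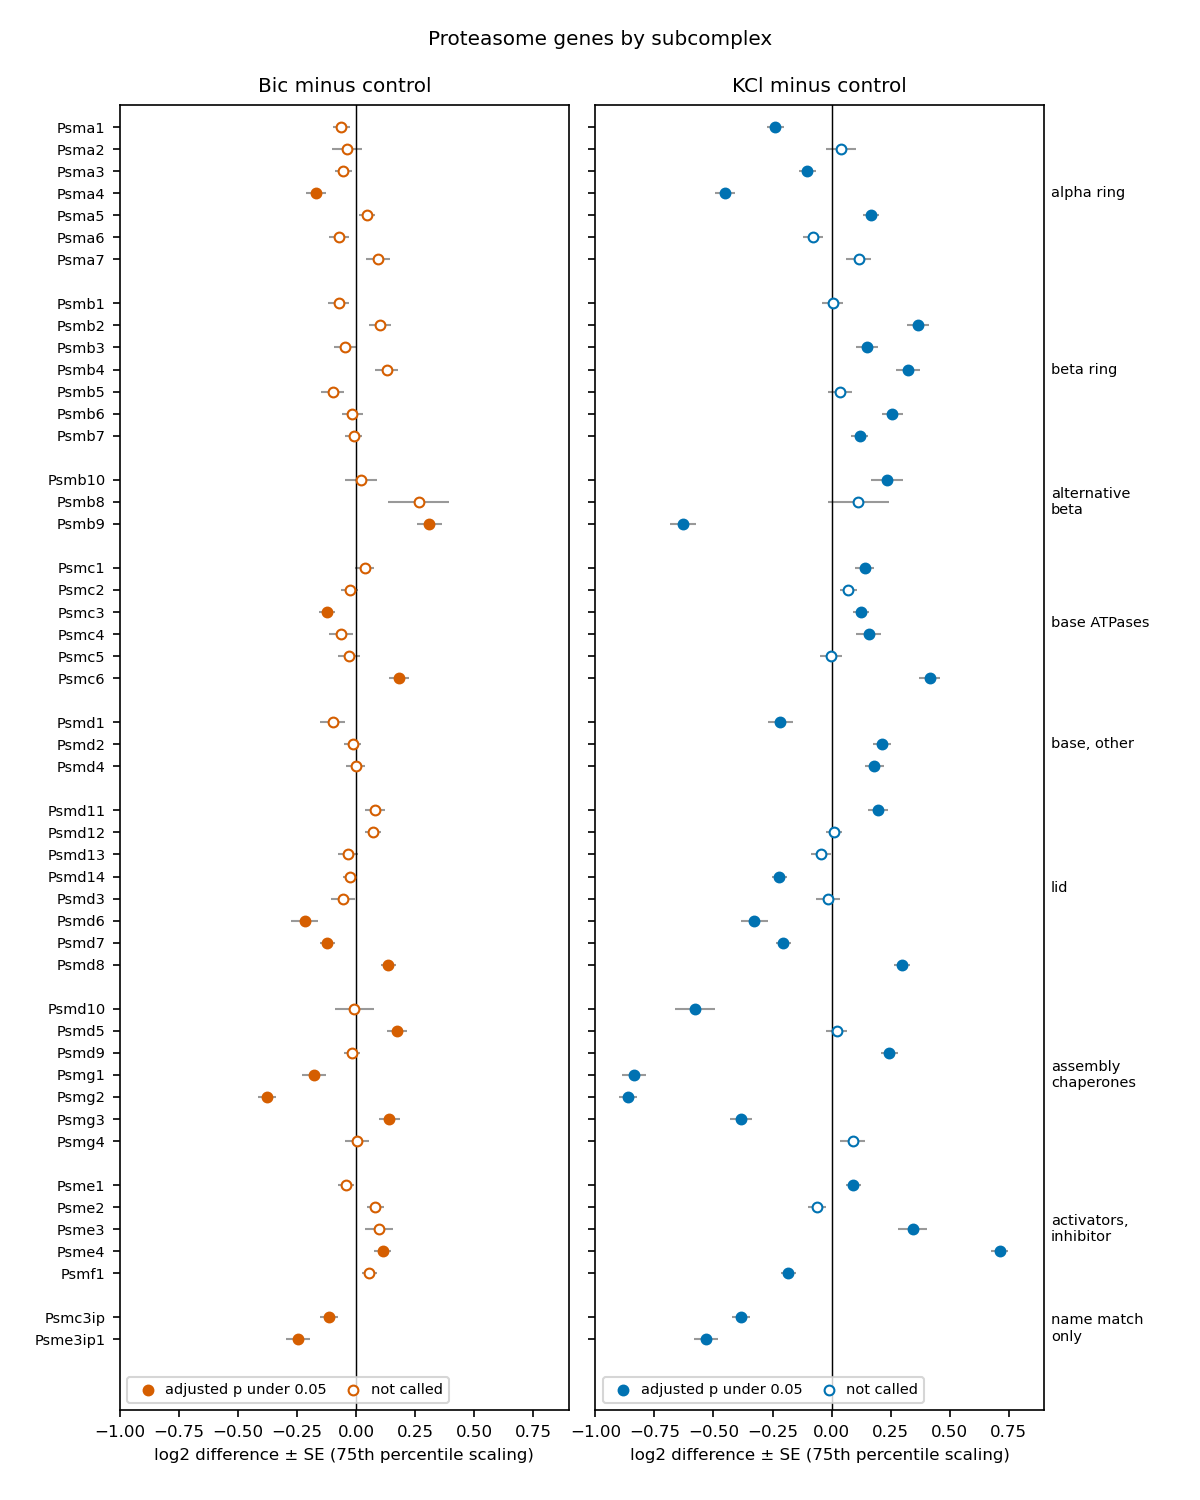
Log2 difference from control for each of the 48 tested genes, grouped by subcomplex, in Bic cultures (left, orange) and KCl cultures (right, blue). Points are limma estimates with SE bars from 3 arrays per group, filled where the adjusted p was under 0.05. The widest departures from 0 are the falls of Psmg1 (-0.84) and Psmg2 (-0.86) and the rise of Psme4 (0.71) in KCl cultures. The constitutive beta ring lies on the positive side there, though its median is below 0 with the other 5 scalings. Relative to all genes, that median is below 0 only with normexp and the 75th percentile.

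The small rises in KCl cultures depended on how the arrays were scaled. With 5 other scalings the members called higher and lower in KCl than in control cultures are given here, with the shares of all genes in brackets. They numbered 7 and 25 (28% and 41.8%) with quantile normalization and 4 and 19 (20.9% and 44.8%) with the array median. With spike-in probes they were 1 and 18 (15.7% and 44.7%). With normexp background correction they were 1 and 8 (13% and 16.5%) with the 75th percentile and 7 and 20 (26.8% and 39.7%) with quantile normalization. The choice also moved all genes together: their median difference was 0.0244 as reported, -0.135 with median scaling and -0.201 with spike-in scaling. Across all 22 alternative settings, 8 of the 34 calls against control held: Psme4 was higher, and Psma4, Psmd6, Psmd7, Psme3ip1, Psmg1, Psmg2 and Psmg3 were lower. Relative to the median of all genes under the same scaling, Psme4 lay between 0.483 and 0.687 higher, Psmg1 between -0.900 and -0.764, Psmg2 between -1.07 and -0.802 and Psmg3 between -0.600 and -0.317. Of the 14 calls in Bic cultures, 0 held in every alternative, since normexp with the 75th percentile left 0 of them (821 of all 14070 genes were called there).

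**Figure D2:**
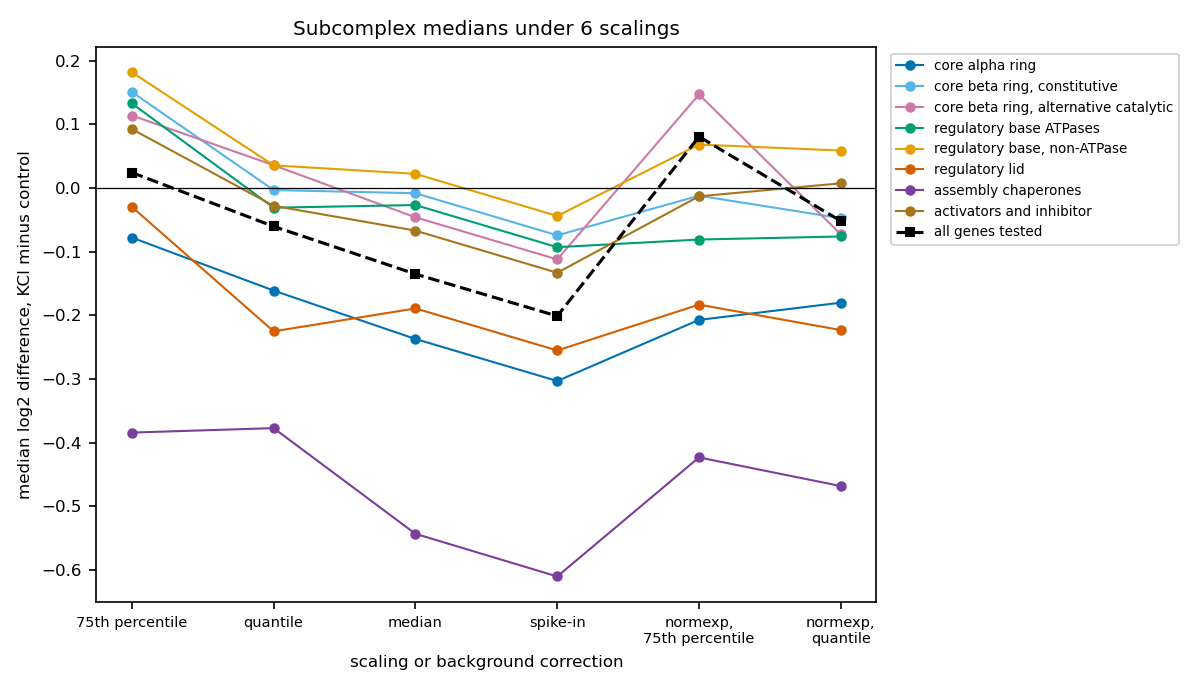
Median log2 difference between KCl and control cultures for each subcomplex (coloured lines) and for all genes tested (dashed), under 6 scalings or background corrections of the same 9 arrays. The assembly chaperones lie lowest in every setting, from -0.610 to -0.377, and the alpha ring lies below the beta ring throughout. The beta ring and ATPase medians are above 0 only with 75th percentile scaling of the processed signal. The dashed line also lies below 0 with quantile, median and spike-in scaling and with normexp and quantile normalization.

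To show the sequence before the start of members with different responses, the 250 bases upstream of 5 of them are given 5′ to 3′ on the gene's strand, from RefSeq promoters of GRCm38.p6. Psme4 and Psmg1 carried the furthest rise and one of the furthest falls in KCl cultures, Psmb9 moved in opposite directions under the treatments, and Psmb6 and Psmc6 are core and base subunits that hold a motif. Capitals mark matches, on either strand, to TGACNNNGC (the element bound by NFE2L1 and NFE2L2, known activators of proteasome genes) or CCAAT (bound by NF-Y).
Psme4, chr11:30771525-30771774, plus strand: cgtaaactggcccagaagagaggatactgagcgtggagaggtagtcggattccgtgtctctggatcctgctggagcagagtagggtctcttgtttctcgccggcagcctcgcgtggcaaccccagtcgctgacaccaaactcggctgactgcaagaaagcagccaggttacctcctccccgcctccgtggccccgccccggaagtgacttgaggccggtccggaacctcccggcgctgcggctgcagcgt
Psmg1, chr16:95990961-95991210, minus strand: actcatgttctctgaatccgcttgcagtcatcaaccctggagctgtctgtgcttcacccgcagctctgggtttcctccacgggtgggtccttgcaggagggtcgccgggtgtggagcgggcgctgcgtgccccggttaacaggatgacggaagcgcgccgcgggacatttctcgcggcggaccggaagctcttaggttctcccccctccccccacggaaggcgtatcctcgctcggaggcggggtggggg
Psmb6, chr11:70525107-70525356, plus strand: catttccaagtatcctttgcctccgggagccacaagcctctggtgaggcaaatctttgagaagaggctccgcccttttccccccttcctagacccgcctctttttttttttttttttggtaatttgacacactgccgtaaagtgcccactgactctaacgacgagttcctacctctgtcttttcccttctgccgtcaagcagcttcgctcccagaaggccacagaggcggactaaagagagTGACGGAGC
Psmc6, chr14:45329574-45329823, plus strand: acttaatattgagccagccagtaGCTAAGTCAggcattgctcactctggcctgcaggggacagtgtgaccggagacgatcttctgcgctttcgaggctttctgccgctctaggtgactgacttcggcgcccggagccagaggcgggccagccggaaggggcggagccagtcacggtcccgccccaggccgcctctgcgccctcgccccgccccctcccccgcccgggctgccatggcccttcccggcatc
Psmb9, chr17:34187331-34187580, minus strand: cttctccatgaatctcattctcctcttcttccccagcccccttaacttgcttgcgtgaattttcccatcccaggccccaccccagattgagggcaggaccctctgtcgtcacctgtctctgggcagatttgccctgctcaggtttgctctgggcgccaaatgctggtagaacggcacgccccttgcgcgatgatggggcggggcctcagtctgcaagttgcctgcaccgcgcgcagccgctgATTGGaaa
Psmb6 holds TGACNNNGC on the plus strand directly before the start, Psmc6 holds it on the other strand in the distal part of the window, and Psmb9 holds CCAAT on the other strand near the start. The windows of Psme4 and Psmg1 hold neither. Promoters were found for 42 of the 50 genes. Of these, 5 (11.9%) hold TGACNNNGC, against 11.5% of 27025 genes, 16 (38.1%) hold CCAAT, against 37.5%, and 0 hold the cyclic AMP response element TGACGTCA, against 1.77%. TGACNNNGC and TGACGTCA both begin with TGAC but cannot match from the same base, and a match describes the sequence alone.

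Among the alpha subunits, which form the outer rings of the core and its gate, 3 of 7 were lower in KCl than in control cultures, 1 was higher and 3 did not pass. The background over all genes was 36% lower and 35.8% higher. The median of the alpha subunits was -0.0777, and it was below 0 and below the median of all genes in each of the 6 scalings. Psma4 changed most. Its log2 signal was 1.62, 1.71 and 1.70 on the KCl arrays, 1.90, 1.98 and 1.99 on the Bic arrays, and 2.07, 2.14 and 2.17 on the control arrays. Every KCl array lay below every Bic array, and every Bic array below every control array. The difference from control was -0.45 ± 0.0431 in KCl cultures (adjusted p = 3.3e-05) and -0.17 ± 0.0431 in Bic cultures (0.014), and a further probe gave -0.51 and -0.21. Psma1 (-0.24, adjusted p = 0.00045) and Psma3 (-0.10, 0.033, a call lost in 8 alternatives) were also lower in KCl cultures. Psma5 was higher by 0.17 (0.0022), a sign that turned with 4 of the scalings. Psma2, Psma6 and Psma7 lay between -0.078 and 0.11. In Bic cultures Psma4 was the 1 alpha subunit called, where 44.4% of all genes were called.

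Of the constitutive beta subunits, 5 of 7 were called higher in KCl than in control cultures and 0 lower with 75th percentile scaling. With that scaling 35.8% of all genes were called higher and 36% lower. The median of the 7 was 0.151, but with the other 5 scalings it lay between -0.0742 and -0.00312. Relative to the median of all genes under the same scaling, it was 0.127 as reported and with median and spike-in scaling. That relative median was 0.057 with quantile normalization, 0.00446 with normexp and quantile normalization, and -0.0928 with normexp and the 75th percentile. Psmb2 differed by 0.37 ± 0.0458 (adjusted p = 0.00016), Psmb4 by 0.32 (0.00052) and Psmb6, a catalytic subunit, by 0.26 (0.0011). These differences had the same sign in every alternative, and the call was lost in 2 of them for Psmb2 and in 5 each for Psmb4 and Psmb6. Psmb3 (0.15) and Psmb7 (0.12), another catalytic subunit, were called as reported and turned negative in all 5 other scalings. Psmb5, the catalytic subunit with chymotrypsin-like activity, differed by 0.035 (0.53), and Psmb1 by 0.0057. In Bic cultures 0 of the 7 passed limma's test, against 44.4% of all genes, and 1 of them, Psmb4 (0.13), had an unadjusted p under 0.05. The range of the 7 was -0.099 to 0.13.

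The alternative catalytic beta subunits Psmb8, Psmb9 and Psmb10 replace constitutive ones in the immunoproteasome, which is induced by interferon and makes peptides for antigen presentation. They did not move as a group. Psmb9 had log2 signals of -2.70, -2.52 and -2.57 on the KCl arrays, -1.65, -1.70 and -1.62 on the Bic arrays, and -2.02, -1.94 and -1.94 on the control arrays. All KCl arrays lay below all control arrays and all Bic arrays above them. The difference from control was -0.63 ± 0.0531 in KCl cultures (adjusted p = 1.6e-05) and 0.31 ± 0.0531 in Bic cultures (0.0021), and KCl was lower than Bic by 1.92-fold (-0.94, adjusted p = 4e-06). With normexp and the 75th percentile, the KCl difference was 0.0024.

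Psmb8 had -2.24, -1.64 and -1.95 on the KCl arrays, -1.81, -1.78 and -1.78 on the Bic arrays, and -2.07, -2.04 and -2.06 on the control arrays. Its KCl arrays were spread over the whole range of the other groups, and neither treatment passed (0.11 ± 0.128, adjusted p = 0.44, for KCl; 0.26 ± 0.128, 0.13, for Bic). Between Bic and control arrays alone, with the replicate number as a block, the Bic difference of Psmb8 passed (adjusted p = 0.0053). That fit also leaves out the KCl arrays, so it does not single out the effect of the block. The SD of Psmb8 was 0.303 between KCl arrays, 0.0176 between Bic arrays and 0.0149 between control arrays. Its Bic difference also passed in 3 of the 22 alternatives, which do not include the paired fit (lowest adjusted p = 0.00083). Psmb10 had 2.66, 2.74 and 2.90 on the KCl arrays, 2.50, 2.58 and 2.59 on the Bic arrays, and 2.43, 2.59 and 2.58 on the control arrays. The KCl arrays of Psmb10 were above all others, by 0.23 ± 0.0683 against control (adjusted p = 0.015), a call lost with 3 scalings, with slide as a block (0.13, adjusted p = 0.15) and without control array 1. The Psmb10 difference in Bic cultures was 0.022 (0.83).

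Genes of antigen presentation and the interferon response were mixed as well. Of 15 tested, 6 were higher and 4 lower in KCl than in control cultures, and 2 were higher and 1 lower in Bic than in control cultures. Among all genes tested, 71.8% were called in either direction in KCl and 44.4% in Bic cultures. In KCl cultures the chemokine Cxcl10 (-1.46) and the transcription factor Irf1 (-0.71, with -0.18 by another probe) were lower. The interferon-induced Ifit1 was called lower (-1.44), but it was well above background on 1 of 3 KCl arrays and differed by 0.769 with normexp and the 75th percentile. The class I light chain B2m (0.51) and the class I chain H2-D1 (0.51) were called higher, with the calls lost in 1 and 2 alternatives, and so was the peptide transporter subunit Tap2 (0.52, adjusted p = 0.03), a call lost in 10 of 22, slide as a block among them. Tap1, which neighbours Psmb9, differed by -0.39 (adjusted p = 0.060). In Bic cultures H2-K1 (0.29) and B2m (0.25) were called higher and Irf1 (-0.25) lower, each call lost in 2 or 3 alternatives. Microglia, which carry immunoproteasome subunits, had 6 of 10 markers called higher and 0 lower in KCl cultures, where 35.8% of all genes were higher and 36% lower. The median of these markers was 0.503, and their summed levels were 6.02 to 8.99 in KCl, 4.14 to 6.23 in Bic and 4.91 to 5.17 in control cultures. The part of this shift in the values of the alternative subunits was not tested.

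The base of the regulatory particle holds the ATPases, of which 4 of 6 were called higher and 0 lower in KCl than in control cultures. For all genes these shares were 35.8% and 36%. The ATPase median was 0.133 and was negative in the other 5 scalings. Relative to the median of all genes it was 0.109 as reported, 0.108 with median, 0.109 with spike-in and 0.0294 with quantile scaling. With normexp that relative median was -0.0242 (quantile normalization) and -0.162 (75th percentile). Psmc6 changed most, at 4.51, 4.50 and 4.58 on the KCl arrays, 4.27, 4.36 and 4.26 on the Bic arrays, and 4.06, 4.16 and 4.13 on the control arrays. The groups were stacked without overlap, KCl above Bic above control. Psmc6 rose by 0.42 ± 0.0429 in KCl cultures (adjusted p = 5.2e-05) and by 0.18 ± 0.0429 in Bic cultures (0.010), with the same sign in all 22 alternatives and the calls lost in 2 and 3 of them. Psmc3 was called lower in Bic cultures (-0.12, adjusted p = 0.019) and higher in KCl cultures (0.12, 0.011). Its Bic call was lost in 6 of 22 alternatives, and the KCl sign turned with 3 scalings. Psmc1 (0.14) and Psmc4 (0.16, with -0.094 by its other probe) were called higher in KCl cultures and turned negative in all 5 other scalings. Psmc2 and Psmc5 did not pass in either treatment against control.

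The large scaffold subunits of the base and its ubiquitin receptor differed in sign. Psmd1 was lower (-0.22, adjusted p = 0.0058, a call lost with slide as a block), and Psmd2 (0.21, 0.0010) and the ubiquitin receptor Psmd4 (0.18, 0.0037) were higher in KCl than in control cultures, with a negative sign for Psmd2 and Psmd4 under spike-in scaling. In Bic cultures 0 of these 3 passed limma's test, against 44.4% of all genes, and 0 had an unadjusted p under 0.05. Their differences were -0.099 to -0.0015.

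In the lid, 3 of 8 genes were lower, 2 higher and 3 did not pass between KCl and control cultures, beside 36% lower and 35.8% higher over all genes. The lid median, -0.0295, was below that of all genes in each of the 6 scalings. Psmd6 had 3.36, 3.34 and 3.27 on the KCl arrays, 3.45, 3.47 and 3.38 on the Bic arrays, and 3.55, 3.75 and 3.65 on the control arrays. Both treatments lay wholly below control. The differences were -0.33 ± 0.0563 in KCl cultures (adjusted p = 0.0010) and -0.22 ± 0.0563 in Bic cultures (0.015), the Bic call being lost without Bic array 3. Psmd7, a scaffold partner of the deubiquitinase, was lower in KCl (-0.20, adjusted p = 0.00048) and in Bic cultures (-0.12, 0.013), the Bic call being lost in 4 alternatives. Psmd14, the deubiquitinase itself, was lower in KCl cultures (-0.22, 0.00034), with -0.42 by its second probe. Psmd8 was called higher in KCl (0.30, 6.5e-05) and in Bic cultures (0.14, 0.0096), each call lost in 3 alternatives, and Psmd11 in KCl cultures (0.20, 0.0035), with a negative sign for Psmd11 under spike-in scaling. Psmd3, Psmd12 and Psmd13 lay between -0.044 and 0.0089.

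Among the assembly chaperones, which include the furthest falls, 4 of 7 were lower in KCl than in control cultures. Psmd9 was higher by its brightest probe but lower by its other. Over all genes, 36% were lower and 35.8% higher. The median of the chaperones was -0.384 and stayed between -0.610 and -0.377 over the 6 scalings. Psmg1 and Psmg2 bind each other and guide alpha ring formation. Psmg1 had log2 signals of -0.088, -0.056 and 0.036 on the KCl arrays, 0.67, 0.63 and 0.57 on the Bic arrays, and 0.80, 0.73 and 0.87 on the control arrays. Psmg2 had 1.102, 1.088 and 1.091 on the KCl arrays, 1.54, 1.59 and 1.60 on the Bic arrays, and 1.92, 2.03 and 1.91 on the control arrays. For both genes the KCl arrays were lowest and the control arrays highest, with no overlap.

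Psmg1 fell by 0.84 on the log2 scale in KCl cultures (SE 0.0507, adjusted p = 2.4e-06) and by 0.18 in Bic cultures (0.022, or 0.055 with Bic and control arrays paired by replicate number). Its Bic call was lost in 8 of 22 alternatives. Psmg2 fell by 0.86 in KCl (SE 0.0386, 4.9e-07) and by 0.38 in Bic cultures (0.00014). The second Psmg2 probe gave -0.96 and -0.40. KCl was below Bic by 0.66 for Psmg1 (1.8e-05) and by 0.48 for Psmg2 (2.1e-05). Psmg3, which acts with Psmg4 in the next step of alpha ring assembly, had 0.74, 0.75 and 0.75 on the KCl arrays, 1.31, 1.22 and 1.29 on the Bic arrays, and 1.04, 1.19 and 1.15 on the control arrays. KCl arrays were lowest and Bic arrays highest. The difference was -0.38 ± 0.0450 in KCl cultures (adjusted p = 0.00011) and 0.14 ± 0.0450 in Bic cultures (0.036, or 0.12 paired), the Bic call being lost in 15 of 22 alternatives. Psmg4 did not pass in either (0.090 and 0.0042).

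Chaperones of the base behaved differently from one another. Psmd10, also called gankyrin, had -0.75, -0.74 and -1.06 on the KCl arrays, -0.30, -0.21 and -0.31 on the Bic arrays, and -0.24, -0.30 and -0.26 on the control arrays. It was lower on every KCl array, most so on KCl array 3, and Bic and control overlapped. The difference was -0.58 ± 0.0833 in KCl cultures (adjusted p = 0.00037), and -0.46 with slide as a block (0.00056), and -0.0069 in Bic cultures (0.96). Psmd5 had 2.57, 2.50 and 2.55 on the KCl arrays, 2.73, 2.69 and 2.65 on the Bic arrays, and 2.60, 2.45 and 2.50 on the control arrays. Its Bic arrays were above all others, by 0.17 ± 0.0437 against control (0.013), and KCl and control overlapped (0.022, 0.66).

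**Figure D3:**
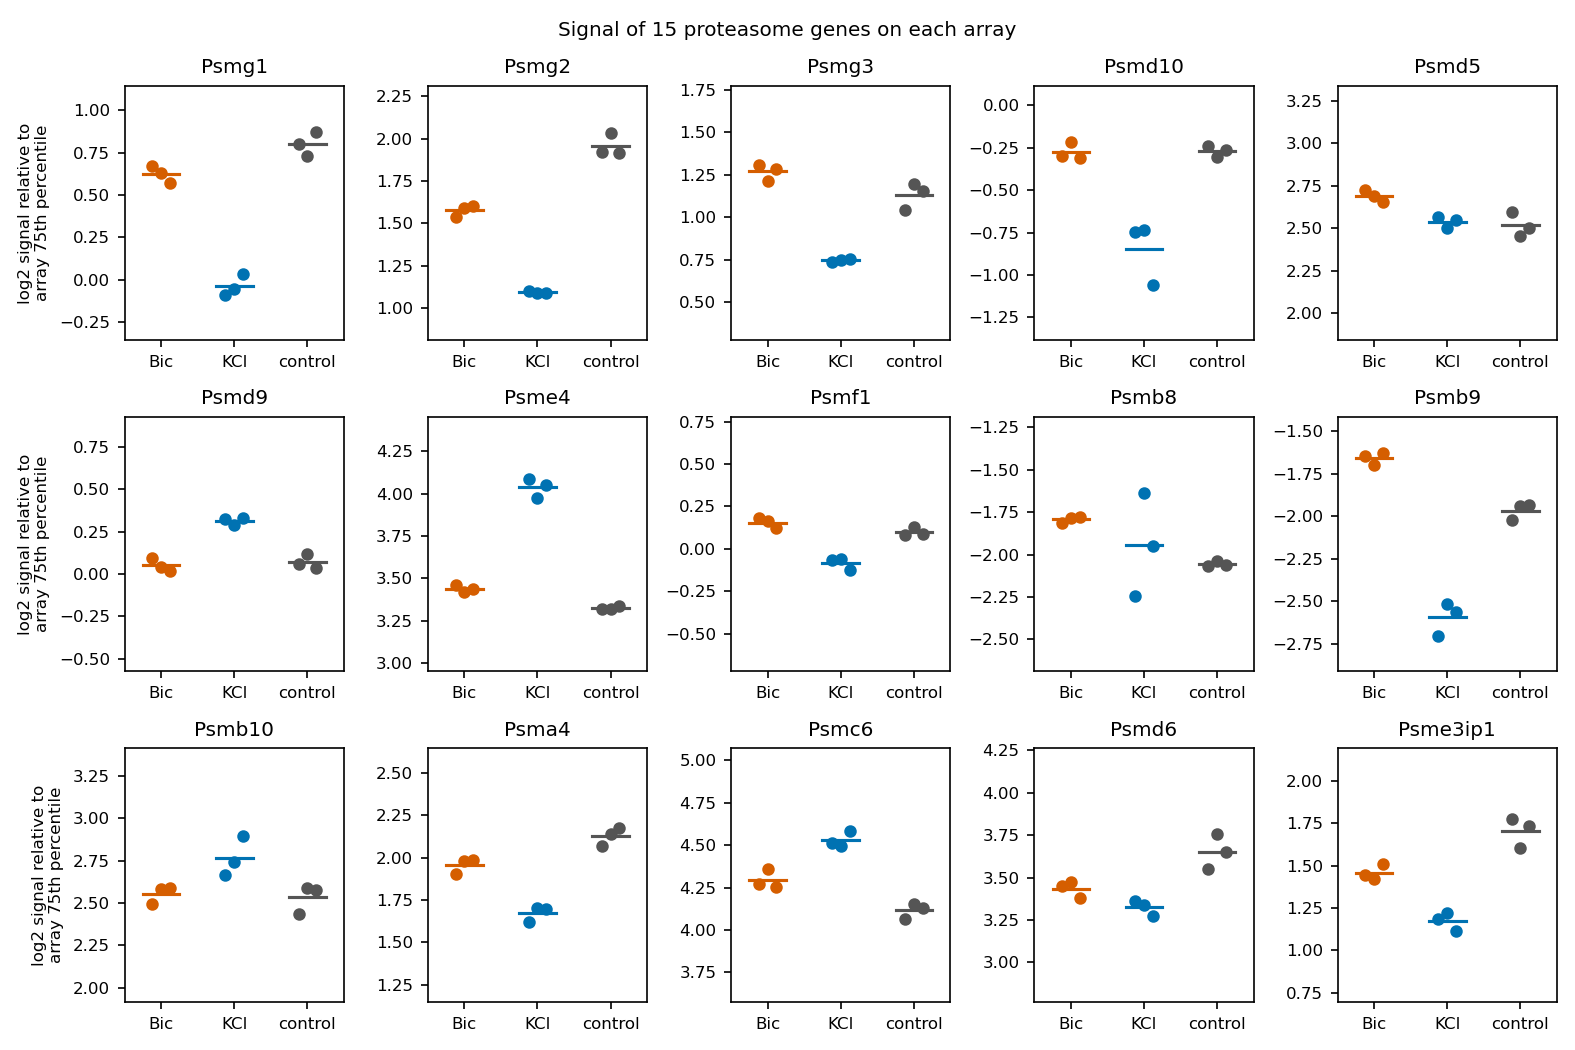
Log2 signal relative to the array's 75th percentile for 15 proteasome genes, with 1 point per array and a line at the mean of the 3 arrays in Bic (orange), KCl (blue) and control (grey) cultures. All panels span the same height on the log2 scale. KCl arrays stand apart below for Psmg1, Psmg2, Psmg3, Psmd10, Psma4 and Psmb9 and above for Psme4.

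The activators replace the regulatory cap, and Psmf1 encodes an inhibitor. Psme4, a nuclear activator that works without ATP, had 4.08, 3.97 and 4.05 on the KCl arrays, 3.46, 3.42 and 3.43 on the Bic arrays, and 3.32, 3.32 and 3.34 on the control arrays. The KCl arrays stood clear of the rest, and the Bic arrays lay just above control. Psme4 rose by 0.71 ± 0.0345 in KCl cultures (adjusted p = 7.3e-07), and its other 2 probes gave 0.62 and 0.59. The Bic difference was 0.11 (0.030), a call lost in 13 of 22 alternatives. Psme3, a nuclear activator of another family, was called higher in KCl cultures (0.34, 0.0012, lost in 2 alternatives). Its relatives Psme1 and Psme2, which are interferon-inducible, differed by 0.093 (0.033) and -0.061 (0.16), and the sign of Psme1 turned with 4 scalings.

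Of the genes matched by name alone, 2 are no subunits. Psme3ip1, which encodes a protein that binds Psme3, had 1.19, 1.22 and 1.11 on the KCl arrays, 1.45, 1.42 and 1.51 on the Bic arrays, and 1.77, 1.61 and 1.73 on the control arrays. Its groups did not overlap and KCl was lowest. It fell by 0.53 in KCl cultures (SE 0.0522, adjusted p = 3.8e-05) and by 0.25 in Bic cultures (0.0060). Psmc3ip, a cofactor of meiotic recombination, fell by 0.38 in KCl cultures, a call lost in 1 alternative, and was called lower by 0.11 in Bic cultures, a call lost in 13 of 22, slide as a block among them.

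Probes for the same gene did not always give the same result. Between KCl and control cultures, all probes shared a sign in 12 of 16 genes with several kept probes, and in 2 genes probes were called in opposite directions. Psmd9, a base chaperone, had 0.33, 0.29 and 0.33 on the KCl arrays, 0.097, 0.045 and 0.019 on the Bic arrays, and 0.056, 0.12 and 0.037 on the control arrays by its brightest probe (0.25 ± 0.0348, adjusted p = 0.00034). Its other probe had -0.43, -0.33 and -0.27 on the KCl arrays, 0.0075, -0.10 and -0.050 on the Bic arrays, and 0.024, 0.23 and -0.063 on the control arrays (-0.40, 0.0020). KCl arrays were thus highest by one probe and lowest by the other, and no direction is given for Psmd9.

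Psmf1 had -0.066, -0.063 and -0.13 on the KCl arrays, 0.18, 0.16 and 0.12 on the Bic arrays, and 0.079, 0.13 and 0.089 on the control arrays by its brightest probe (-0.18 ± 0.0320 between KCl and control). A second probe had -0.22, -0.19 and -0.22 on the KCl arrays, -0.16, -0.22 and -0.25 on the Bic arrays, and -0.30, -0.34 and -0.39 on the control arrays (0.13, adjusted p = 0.010). KCl was below control by the brightest probe and above it by the second, and its dimmest probe differed by -0.12 (adjusted p = 0.37). Psmd12 differed by 0.0089 between KCl and control by its brightest probe and by -0.39 and -0.31 by its other 2, both called. All probes of each of these genes carry the same RefSeq identifier.

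**Figure D4:**
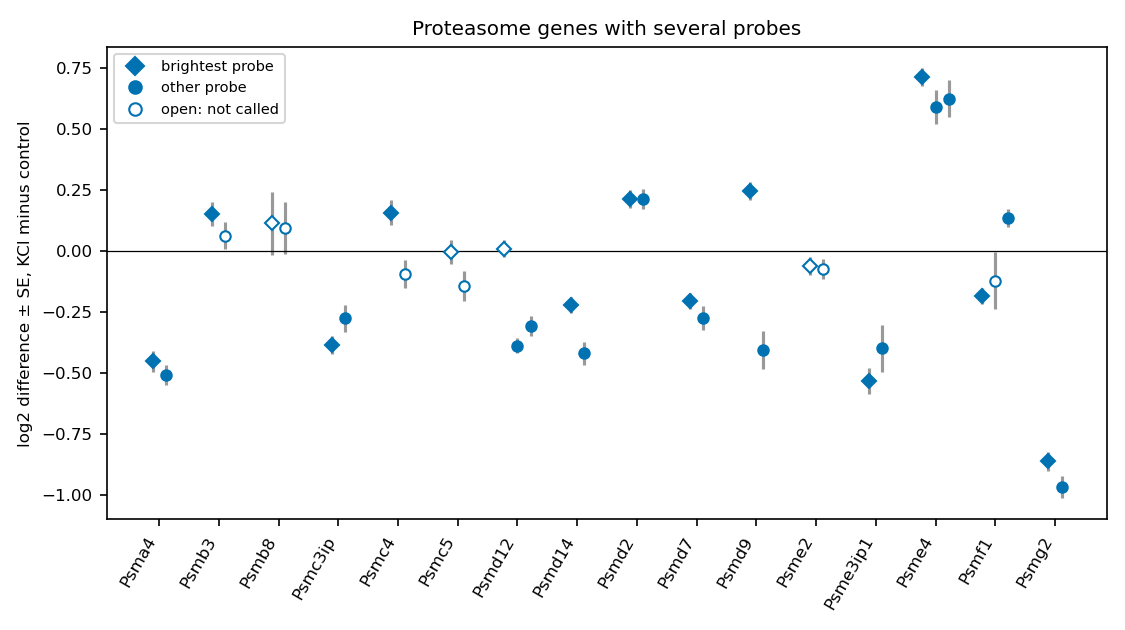
Log2 difference between KCl and control cultures for every kept probe of the 16 genes with several probes, with SE bars from 3 arrays per group. Diamonds are the brightest probes and circles the others, filled where the adjusted p over probes was under 0.05. The 3 Psme4 probes and the 2 Psmg2 probes lie together, and those of Psmd9 and Psmf1 lie on both sides of 0.

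Set directly against each other, KCl and Bic cultures differed in 35 of the 48 genes, 21 higher and 14 lower in KCl (36.1% and 28.8% of all genes, 64.8% in either direction), with a median of 0.0594 beside 0.0712 for all genes. That balance turned with the scaling, for the members and for all genes. With the other 5 scalings 1 to 5 members were higher and 4 to 23 lower, with medians of -0.167 to -0.0639. Of all genes, 7.81% to 26.2% were higher and 9.52% to 37.1% lower, with medians of -0.155 to 0.0873. The members' median minus that of all genes was -0.0118 as reported and with median and spike-in scaling. It was -0.0811 with quantile normalization, and -0.178 (75th percentile) and -0.0854 (quantile) with normexp. The widest differences were Psmb9 (-0.94), Psmg1 (-0.66), Psme4 (0.60), Psmd10 (-0.57) and Psmg3 (-0.52). Of these 35 calls, 5 held in all 22 alternatives: Psme4 was higher, and Psme3ip1, Psmg1, Psmg2 and Psmg3 were lower in KCl than in Bic cultures. Both treatments were set against the same 3 control arrays. Their differences from control are therefore not independent of each other.

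Arrays lay on 3 slides, of which 2 held more than 1 group. Slide 1 held Bic arrays 1 and 2 and control arrays 1 and 2, and no KCl array. Slide 2 held Bic array 3, KCl arrays 1 and 2 and control array 3. KCl and slide thus cannot be told apart fully over all arrays. With slide as a block, the members called higher and lower numbered 13 and 13 between KCl and control, 12 and 11 between KCl and Bic, and 4 and 7 between Bic and control. The shares of all genes with that block were, in the same order, 30.2% and 32.3%, 27.4% and 24.4%, and 17.6% and 26.4%. On slide 2 alone, with 2 KCl arrays and 1 control array, the KCl difference from control was -0.946 for Psmg1 (-0.84 over all arrays) and -0.513 for Psma4 (-0.45). It was -0.817 for Psmg2 (-0.86), 0.691 for Psme4 (0.71) and -0.674 for Psmb9 (-0.63). The shifts of Psmg1 and Psma4 were larger than the SD between arrays of a group. Within slide 1 (2 arrays per group) and slide 2 (1 array per group) the Bic difference from control was -0.411 and -0.312 for Psmg2 and -0.117 and -0.304 for Psmg1. KCl array 3 was alone on its slide.

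Partners of the proteasome that do not bear its name were also read. Of 23 tested, 8 were higher and 6 lower in KCl than in control cultures, and 5 were higher and 1 lower in Bic than in control cultures. Over all genes, 71.8% were called in either direction in KCl and 44.4% in Bic cultures. The shuttle factor Ubqln1 (0.77 in KCl, 0.23 in Bic cultures) and Zfand5 (0.43 and 0.33), a proteasome-binding zinc finger protein, were higher under both treatments. In KCl cultures the other probes gave 0.47 and 0.31 for Ubqln1 and 0.84 for Zfand5. Their Bic calls were lost in 3 alternatives for Ubqln1 and in 1 for Zfand5. Ngly1, the deglycosylase that processes NFE2L1, was lower under both treatments (-0.78 and -0.18), the Bic call being lost in 7 of 22 alternatives. The deubiquitinase Uchl5 (-0.44) and the ligase Ube3c (-0.42, with -0.14 by its other probe) were lower in KCl cultures. Txnl1, a thioredoxin-like protein of the cap, was higher by its brightest probe (0.82 in KCl, 0.40 in Bic cultures) but had -0.42 and -0.11 by the other. Pomp, the chaperone of beta ring maturation, was called higher in KCl than in Bic cultures by 0.24, a call lost with all 5 other scalings (down to 0.0104), and Fbxo7, a ligase adaptor that binds Psmf1, was lower (-0.345). Nfe2l1 itself did not pass in KCl (0.082) or Bic cultures (-0.047) against control.

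Of 19 genes that supply ubiquitin and its conjugating enzymes, 11 were higher and 4 lower in KCl than in control cultures. In Bic cultures 1 was higher and 6 lower than in control cultures. The share of all genes called in either direction was 71.8% in KCl and 44.4% in Bic cultures. Uba6, a ubiquitin-activating enzyme, was higher under both treatments (0.94 in KCl, 0.90 in Bic cultures), and its 3 probes gave 0.64 to 0.98 in KCl cultures. The polyubiquitin gene Ubb was called higher in KCl cultures (0.50), a call lost in 3 alternatives. Uchl3, a deubiquitinase, was lower under both (-0.41 and -0.17), the Bic call being lost in 5 alternatives. Of the conjugating enzymes, Ube2d1 was lower in KCl cultures (-0.20), and Ube2d2a was lower by its brightest probe (-0.23) but had 0.17 and 0.40 by its 2 others. In Bic cultures Usp5 (-0.19, adjusted p = 0.015, or 0.061 paired) and Ube2r2 (-0.18) were called lower, the calls being lost in 4 and 3 alternatives. Against Bic, KCl cultures had higher Uba1 (0.293) and Ube2b (0.275), calls lost in 3 and 4 alternatives.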

How the data were processed

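RNA from cultures of mouse cortical neurons (9 samples: 3 Bic, 3 KCl, 3 control, grouped by the labels) was labelled with cyanine 3 and hybridised to an Agilent mouse array, 1 sample per array, per the labels' protocols. The authors deposited Agilent Feature Extraction intensity values; the submitters' processing notes name release 10.5.1.1 and the file headers 10.7.3.1. The processed signal is background-subtracted within each array, per the file headers, and is not normalized between arrays; the deposited series values equalled it on all 45018 features.

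The log2 of the processed signal minus each array's 75th percentile over 43379 non-control spots was used. Outlier-marked spots were left out (39 values), spots of a probe were averaged, and a probe was kept if all arrays of 1 or more groups had it well above background with values from 2 or more arrays in every group. RefSeq identifiers named 26888 of 41174 probes (table of GRCm38.p6), 21000 were kept, and the brightest probe stood for each of 14070 genes. limma 3.58.1 in R 4.3.3 was fitted to all 9 arrays with group as the only term (6 residual and 1.755 prior degrees of freedom), with Benjamini-Hochberg adjustment over all genes within a comparison, two-sided, at 0.05. Every adjusted p here is limma's. The number of arrays limits the precision.

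Values on every array are given for the 8 called members with the largest difference in each comparison, for the alternative catalytic subunits and for members with probes called in opposite directions, and the 3 largest called rises and falls of the partner, ubiquitin and antigen presentation lists are named, except for some items that are not reported here. Tap1, Nfe2l1 and members outside this rule were chosen after their values were seen. The members, lists and tests were chosen with earlier results of these data known. Promoters came from RefSeq, and the motif search covered 250 bases before each start.

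Data were simulated for KCl against control over 14070 genes, with 100 genes changed by each size, independent noise and no shift between arrays. The fit recovered 82% of genes changed by 0.5 and 88% of genes changed by 1 on the log2 scale, and 5.03% of its calls were false. In the data themselves 71.8% of genes were called and the scaling moved all genes, which the simulation does not cover, so these rates do not carry over. Alternatives covered scaling, background correction (normexp on the raw median signal and local background, offset 50, since the files hold no mean signal), dim probe filters, probe choice, outlier spots, the variance prior, the samples fitted, slide, replicate number and each array left out; within-slide differences and a paired fit of Bic and control alone were added after seeing the data. Deviations of same-numbered arrays from their group means correlated at 0.259 to 0.743 between Bic and control (3 pairs), so these numbers were taken to pair the arrays, and at -0.572 to -0.0839 between KCl and either, where they were not. Same-numbered Bic and control arrays also share a slide. Arrays of a slide correlated at 0.163 to 0.743 (9 pairs). Those of different slides correlated at -0.575 to 0.435 (18 pairs, 4 of them positive). On slide 1, Bic array 1 correlated at 0.402 with control array 1 and at 0.163 with control array 2. Bic array 2 correlated at 0.259 with control array 2 and at 0.335 with control array 1, so its shared number did not give the higher value. The fit reported has neither term.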

Additional observations from a re-analysis of the deposited data

How the results depend on the processing

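Of the 34 calls between KCl and control, 8, named above, held in all alternatives, and the calls between Bic and control were lost for all 14 with normexp and the 75th percentile, where fewer genes passed overall. The alternatives were scaling, background correction, filters, probe choice, outlier spots, variance prior, samples fitted, slide, replicate number and leaving out each array. For each change below the cause was not tested, except that a mean over probes takes in probes that differ and that a fit with fewer arrays or a block has less information. The shares of all genes called under the other scalings and with slide as a block are given above for the KCl comparisons. With quantile normalization, in KCl against control, members called numbered 7 higher and 25 lower, and the values were the median of all members -0.101, the constitutive beta ring median -0.00312, the ATPase median -0.0308, the activator and inhibitor median -0.0279, Psma2 -0.161, Psma5 -0.0972, Psmb1 -0.141, Psmb3 -0.0815, Psmb5 -0.147, Psmb7 -0.00312, Psmc1 -0.0336, Psmc2 -0.105, Psmc4 -0.0279, Psmd12 -0.167 and Psme1 -0.0279. For KCl against Bic, members called numbered 5 higher and 23 lower, and the values were the median of all members -0.1, the constitutive beta ring median -0.0103, the ATPase median -0.0128, the activator and inhibitor median -0.00477, Psma5 -0.0891, Psma7 -0.17, Psmb3 -0.00637, Psmb4 -0.0181, Psmb5 -0.0393, Psmb7 -0.0103, Psmc1 -0.0715, Psmc2 -0.0777, Psmc5 -0.128, Psmd11 -0.0583, Psmd3 -0.171 and Psme1 -0.00477. With scaling to the array median, in Bic against control, members called numbered 1 higher and 5 lower (11.2% and 22.8% of all genes), and the value was the median of all members -0.0524. For KCl against control, members called numbered 4 higher, and the values were the median of all members -0.121, the constitutive beta ring median -0.00804, the ATPase median -0.0266, the activator and inhibitor median -0.0668, Psmb3 -0.00804, Psmb7 -0.0407, Psmc1 -0.018, Psmc3 -0.0353, Psmc4 -0.0019 and Psme1 -0.0668. For KCl against Bic, members called numbered 1 higher, and the values were the median of all members -0.0639, Psma5 -0.00137, Psmc1 -0.0175, Psmc2 -0.0258 and Psmd11 -0.00471. With scaling to spike-in probes, in Bic against control, members called numbered 0 higher and 1 lower (8.85% and 8.92% of all genes). For KCl against control, members called numbered 1 higher, and the values were the median of all members -0.188, the constitutive beta ring median -0.0742, the ATPase median -0.0928, the non-ATPase base median -0.0438, the activator and inhibitor median -0.133, Psma5 -0.0572, Psmb3 -0.0742, Psmb7 -0.107, Psmc1 -0.0841, Psmc3 -0.101, Psmc4 -0.0681, Psmd11 -0.0289, Psmd2 -0.0118, Psmd4 -0.0438 and Psme1 -0.133. For KCl against Bic, members called numbered 1 higher, and the values were the median of all members -0.167, the constitutive beta ring median -0.0311, the ATPase median -0.0623, the non-ATPase base median -0.0428, the activator and inhibitor median -0.0905, Psma5 -0.104, Psmb10 -0.0135, Psmb3 -0.0271, Psmb4 -0.0311, Psmb5 -0.0915, Psmb7 -0.0968, Psmc1 -0.12, Psmc2 -0.129, Psmc4 -0.00433, Psmd11 -0.107, Psmd4 -0.0428, Psmd8 -0.0645, Psme1 -0.0905 and Tapbp -0.0557. With normexp and the 75th percentile, in Bic against control, members called numbered 0 higher and 0 lower (3.44% and 2.4% of all genes). For KCl against control, members called numbered 1 higher and 8 lower, and the values were the median of all members -0.103, the constitutive beta ring median -0.012, the ATPase median -0.0808, the activator and inhibitor median -0.0129, Ifit1 0.769, Psma5 -0.0281, Psmb3 -0.012, Psmb7 -0.104, Psmb9 0.0024, Psmc1 -0.102, Psmc3 -0.0122, Psmc4 -0.0703 and Psme1 -0.0129. For KCl against Bic, members called numbered 1 higher and 4 lower, and the values were the median of all members -0.0905, the ATPase median -0.0442, Ifit1 0.556, Psma5 -0.0979, Psmb7 -0.0723, Psmc1 -0.121, Psmc2 -0.0832, Psmc4 -0.00517, Psmd11 -0.0667, Psmd8 -0.00607 and Tapbp -0.103. With normexp and quantile normalization, in Bic against control, members called numbered 5 lower (21.9% of all genes). For KCl against control, members called numbered 7 higher, and the values were the median of all members -0.0974, the constitutive beta ring median -0.0473, the ATPase median -0.076, Psma2 -0.219, Psma5 -0.0853, Psmb1 -0.109, Psmb3 -0.0473, Psmb7 -0.0611, Psmc1 -0.0983, Psmc4 -0.0555 and Psmd12 -0.219. For KCl against Bic, members called numbered 5 higher and 22 lower, and the values were the median of all members -0.102, the ATPase median -0.0287, Psma2 -0.165, Psma5 -0.106, Psma7 -0.126, Psmb7 -0.0327, Psmc1 -0.112, Psmc2 -0.0815, Psmc5 -0.171 and Psmd11 -0.0656. With the mean of all kept probes, in KCl against control, the values were Psmd12 -0.228, Psmd9 -0.0796 and Ube2d2a 0.111. For KCl against Bic, the values were the median of all members 0.0312, Psmd9 -0.015 and Ube2d2a 0.119. With slide as a block, in KCl against Bic, members called numbered 12 higher, and the value was the median of all members 0.0121. With the arrays of slide 2 alone (2 KCl arrays and 1 Bic array), in KCl against Bic, the value was the median of all members 0.0288. Leaving out each array in turn gave 4 to 6 members called higher and 4 to 8 lower in Bic against control, with medians from -0.0311 to -0.000925; the 4 lower came without Bic array 3 and 5 without control array 3. It gave 14 to 20 and 14 to 15, with medians from 0.0164 to 0.0815, in KCl against control, and 17 to 20 and 13 to 14, with medians from 0.0315 to 0.0713, in KCl against Bic. The median moved by over 1.5 times without KCl array 3 (0.0164), control array 2 (0.0815) or control array 3 (0.0230) in KCl against control, and without KCl array 3 (0.0315) in KCl against Bic. With the replicate number as a replicate block, calls higher and lower numbered 5 and 8 in Bic against control, 18 and 15 in KCl against control, and 17 and 13 in KCl against Bic. The shares of all genes were, in the same order, 16.7% and 25.7%, 35.3% and 35.6%, and 35.4% and 28.4%. With that replicate block on the Bic and control arrays alone, whose numbers were taken to pair them, 6 were higher and 7 lower. This fit, which also leaves out the KCl arrays, changed no calls of members in that comparison but those of Psmb8, Psmg1 and Psmg3, given above. Slide as a block left 13 and 13 in KCl against control and 4 and 7 in Bic against control. The 48 tested genes were well above background on all arrays, but this did not keep their values from moving with the background correction. In KCl against control, Psmb9 differed by -0.63 as reported and by 0.0024 with normexp and the 75th percentile. The 3 arrays a group also limit what the test can separate.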
